A study of Mus musculus with 6 samples.

Results

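The imprinted growth genes described here are Dlk1, Meg3, Rian and Dio3 of the Dlk1-Dio3 locus, with H19, Igf2, Cdkn1c, Peg3 and Grb10. They were taken by name from an RNA-seq table of 18303 genes, where 9 of 9 were present. The cells were mouse embryonic fibroblasts from a CBA/CaJ X C57BL/6J background, sampled on day 2 of reprogramming towards pluripotency. Every culture was transfected with an shRNA and kept in iCD1 medium, a defined medium for reprogramming. The study asked what happens when the CDP-ethanolamine pathway, which makes phosphatidylethanolamine, is blocked during reprogramming.

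The 6 libraries fall into 5 groups. The control, shLuc, carried an shRNA against luciferase and has 2 libraries. One library received shEtnk1/2, against the ethanolamine kinases that open the pathway. One received shPcyt2, against the enzyme that makes CDP-ethanolamine. The Etn-deprived library received shLuc in iCD1 medium without ethanolamine (Etn), and the shPebp1 library received an shRNA against Pebp1, a phosphatidylethanolamine-binding protein. Each treated group is thus 1 library with no replicate of its own. The labels do not say that the shLuc libraries came from separate cultures, so a p-value measures only the spread between these libraries, which may be technical.

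An imprinted gene is transcribed mainly from the copy inherited from one parent, a choice set by DNA methylation at an imprinting control region. Many imprinted genes act on fetal growth: as a rule those expressed from the paternal copy promote it and those expressed from the maternal copy restrain it. At the Dlk1-Dio3 locus the paternal copy gives the proteins Dlk1 and Dio3, and the maternal copy gives the noncoding RNAs Meg3 and Rian. The expression of this locus is also followed in reprogramming, because some pluripotent lines lose its maternal transcripts. The deposited values sum both copies, so imprinting itself was not measured.

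The Dlk1-Dio3 members lie on chromosome 12 of the mouse mm10 genome, in the GENCODE annotation of that build. Dlk1 spans chr12:109452823-109463336, Meg3 chr12:109541001-109571726, Rian chr12:109603940-109661716 and Dio3 chr12:110279068-110281097. All 4 are on the plus strand, and the stretch from Dlk1 to Dio3 covers 828.3 kb. H19 (chr7:142575529-142578143) and Igf2 (chr7:142650766-142666816) are neighbours on the minus strand within 91.3 kb, and Cdkn1c (chr7:143458339-143461050) follows 791.5 kb further on. Peg3 (chr7:6703892-6730431) is at the other end of chromosome 7, and Grb10 (chr11:11930508-12038683) is on chromosome 11, both on the minus strand.

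Dlk1, Meg3 and Dio3 were picked for a view of their start regions after their values in the shEtnk1/2 library were seen. Of these genes only Dio3 passed the test given below in that library, and a link between sequence and level was not tested. The start regions shown differ in CpG content, the substrate of imprinting marks. Each is the RefSeq sequence of 250 bases before to 50 bases after the start, on the plus strand of GRCm38.p6, at chr12:109452573-109452872 for Dlk1, chr12:109540746-109541045 for Meg3 and chr12:110278980-110279279 for Dio3. Capitals mark CpG dinucleotides.
Dlk1: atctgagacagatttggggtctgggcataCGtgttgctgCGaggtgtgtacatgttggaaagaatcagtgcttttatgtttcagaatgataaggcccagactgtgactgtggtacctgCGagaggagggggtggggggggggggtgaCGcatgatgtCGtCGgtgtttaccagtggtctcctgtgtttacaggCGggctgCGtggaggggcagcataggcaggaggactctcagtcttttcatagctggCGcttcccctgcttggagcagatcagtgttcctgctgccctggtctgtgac
Meg3: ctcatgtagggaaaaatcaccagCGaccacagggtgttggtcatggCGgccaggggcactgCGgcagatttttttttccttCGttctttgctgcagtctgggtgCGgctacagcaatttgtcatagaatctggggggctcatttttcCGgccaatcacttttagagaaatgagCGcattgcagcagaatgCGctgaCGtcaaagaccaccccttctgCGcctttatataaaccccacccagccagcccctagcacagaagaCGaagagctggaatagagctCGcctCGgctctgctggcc
Dio3: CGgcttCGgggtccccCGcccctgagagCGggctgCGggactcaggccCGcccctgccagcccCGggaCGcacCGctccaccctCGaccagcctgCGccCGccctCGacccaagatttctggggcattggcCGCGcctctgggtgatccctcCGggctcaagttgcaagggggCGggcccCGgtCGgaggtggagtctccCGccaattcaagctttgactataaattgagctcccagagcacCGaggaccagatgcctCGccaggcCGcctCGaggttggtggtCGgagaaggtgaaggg
The Dio3 window held 25 CpG, a count reached by 18.4% of the 32851 promoter windows of this size. Meg3 held 13, reached by 37.9% of windows, and Dlk1 held 9, reached by 45.8%, against a median of 7 over all windows. Windows not shown are that of Rian, with 0 CpG, and that of another RefSeq start of Meg3, with 1 CpG. The motif TATAAA, searched on both strands, begins 31 bases before the RefSeq start of Dio3 and 25 bases before that of Meg3. The RefSeq start of Dio3 lies 162 bases inside the GENCODE gene, so its motif is within the GENCODE span given above. These letters are not in the Dlk1 window, and 13.62% of all windows hold them on either strand. Methylation was not measured, so the sequences stand as a description.

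Each library held 18581314 to 20142641 reads assigned to genes. Levels are given in RPKM, reads normalised to gene length and library size, which allows levels to be compared between genes. Etnk1 stood at 21.0 and 21.4 RPKM in the shLuc libraries and at 12.6 in shEtnk1/2. Etnk2, the other target of that shRNA, was too low to be tested, at 0.457 and 1.003 RPKM in shLuc and 0.333 in shEtnk1/2. Pcyt2 stood at 42.0 and 40.0 RPKM in shLuc and at 29.9 in shPcyt2. Its fall in shPcyt2 did not pass limma's test (adjusted p = 0.16), and it was also under the controls in Etn-deprived (33.46 RPKM) and shEtnk1/2 (35.55). Pebp1 was at 250.4 RPKM in shLuc replicate 1, at 100.7 in the library labelled shLuc replicate 2 and at 99.6 in shPebp1. The second control library therefore goes against its label for this gene, and calls below are given with and without it. All 10 fibroblast markers examined were expressed in every library, with a summed level of 9920 to 13520 RPKM. Markers of skeletal muscle summed to 4.16 to 6.21 RPKM and those of fetal liver, another tissue rich in imprinted transcripts, to 11.9 to 18.3. Most of the fetal liver sum was Alb, at 11.4 to 17.5 RPKM. Neural and glial markers summed to 58.2 to 84.8 RPKM and macrophage markers to 45.1 to 60.6.

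The 9 genes spanned a wide range of levels, in the same order in 6 of 6 libraries. H19, a noncoding RNA of the maternal copy, had a shLuc mean of 768.2 RPKM and ranked 60 among the 11939 genes tested, those averaging 1 RPKM or more. Igf2, the insulin-like growth factor made from the paternal copy beside it, had a shLuc mean of 433.0 and ranked 107. Both were among the most abundant transcripts of these fibroblasts. Grb10, an adaptor that dampens insulin and IGF receptor signalling, had a shLuc mean of 181.7 RPKM. Rian, a host of small nucleolar RNAs, followed at 98.1 and Cdkn1c, the cyclin-dependent kinase inhibitor p57, at 53.4. Peg3, a paternally expressed zinc finger protein, stood at 32.4, Meg3 at 22.2, Dlk1 at 11.4 and Dio3 at 3.86, the least abundant of the 9. In each of the 8 neighbouring pairs in this order the values of the shLuc libraries did not overlap.

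**Figure D1:**
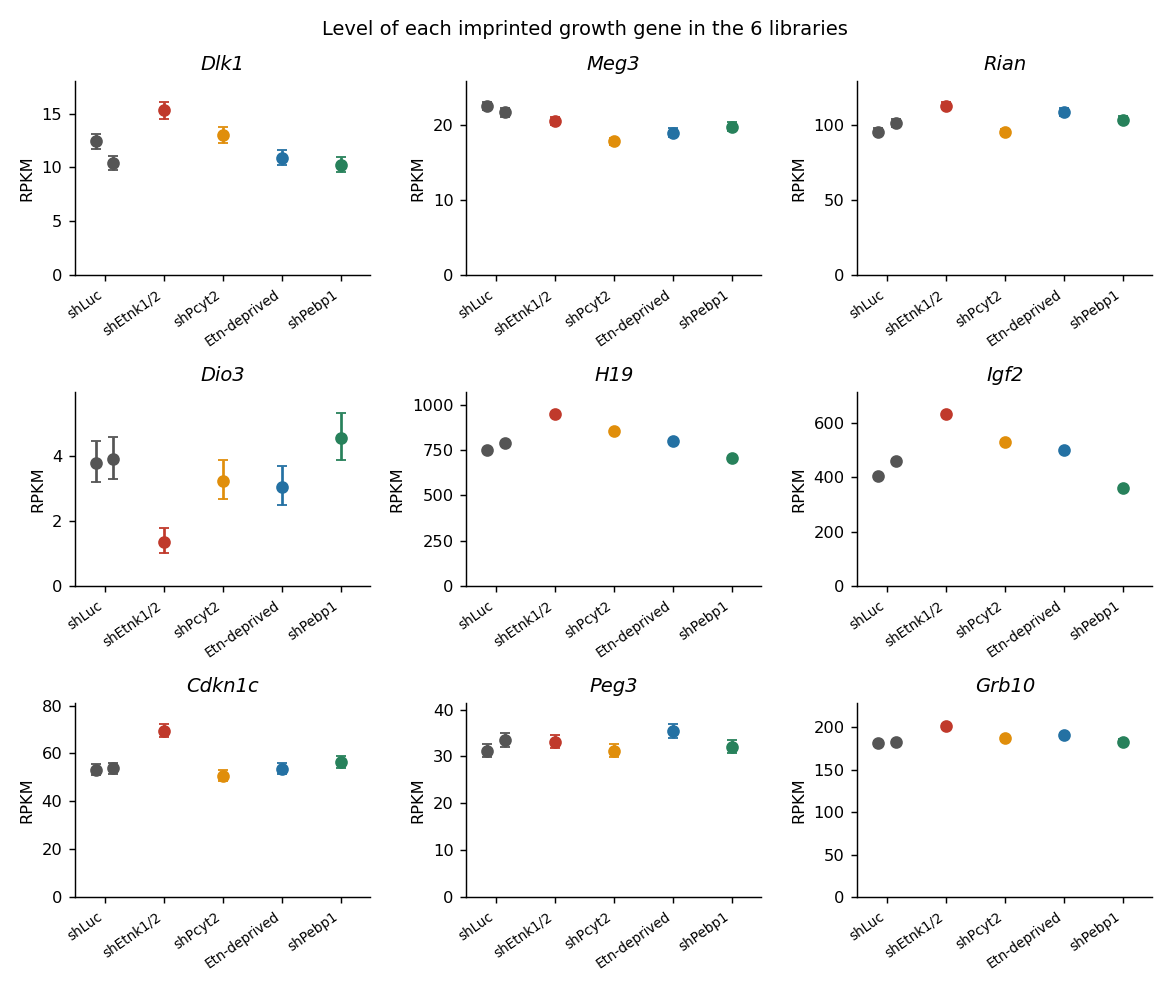
Level of each of the 9 genes in RPKM (vertical axes from 0) in the 2 shLuc libraries and the 4 treated libraries; points are single libraries and bars are exact 95% Poisson intervals that cover counting error only. Dio3 is lowest in shEtnk1/2 at 1.35 RPKM, and Igf2, H19, Cdkn1c and Dlk1 are highest there.

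The shLuc libraries themselves differed most for Dlk1, by -0.23 on the log2(RPKM + 1) scale from replicate 1 to the library labelled replicate 2, and for Igf2, by 0.19. For Grb10, Cdkn1c, Dio3 and Meg3 they differed by 0.05 or less in size. Over all 6 libraries the range was widest for Dio3 at 1.24 and Igf2 at 0.81, and narrowest for Grb10 at 0.15 and Peg3 at 0.18. Dlk1 spanned 0.53, Cdkn1c 0.45, H19 0.43, Meg3 0.32 and Rian 0.24.

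In the shEtnk1/2 library Dio3 fell, while Igf2, H19 and Cdkn1c rose. Of the 9 genes 4 passed limma's test at an adjusted p of 0.05, against 3.46% of the 11939 genes tested. In the higher direction 3 members passed, against 1.09% of all genes, and 1 passed in the lower direction, against 2.37%. The members' median difference from shLuc was 0.20 on the log2(RPKM + 1) scale, and the median of all tested genes was -0.06. Tests below are two-sided, with Benjamini-Hochberg adjustment over all genes tested. Unless another fit is named they are on this scale, and a single treated library is assumed to vary as the shLuc pair does.

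Dio3 encodes the deiodinase that inactivates thyroid hormone. Its level was 3.80 RPKM in shLuc replicate 1, 3.92 in the library labelled shLuc replicate 2, 1.35 in shEtnk1/2, 3.23 in shPcyt2, 3.05 in Etn-deprived and 4.57 in shPebp1. The shEtnk1/2 value was far under the other 5, which lay between 3.05 and 4.57, and its counting interval of 1.00 to 1.79 RPKM did not reach any of them. It was 35.1% of the shLuc mean, a difference of -1.04 (SE 0.15, limma adjusted p = 0.0092), and the pseudocount makes this log2 difference understate the change of so low a gene. The value rests on 50 reads, against 143 and 144 in the shLuc libraries. The gene next to it on the other strand, Dio3os, had 5 and 19 reads in shLuc, 0 in shEtnk1/2, 9 in shPcyt2, 14 in Etn-deprived and 11 in shPebp1. Strand use in the counting is not given in the sources used here, so reads of overlapping genes on opposite strands cannot be told apart.

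Igf2 signals through the IGF1 and insulin receptors and is cleared by Igf2r. Igf2 stood at 404.2 RPKM in shLuc replicate 1, 461.8 in the library labelled shLuc replicate 2, 632.1 in shEtnk1/2, 531.1 in shPcyt2, 500.6 in Etn-deprived and 360.4 in shPebp1. The 3 libraries with an inhibited pathway lay above both controls and shPebp1 below them. In shEtnk1/2 it was at 146.0% of the shLuc mean, a difference of 0.55 (SE 0.08, limma adjusted p = 0.0183).

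H19, which shares an imprinting control region and enhancers with Igf2, followed the same order of libraries at its extremes. H19 was at 748.6 RPKM in shLuc replicate 1, 787.7 in the library labelled shLuc replicate 2, 945.4 in shEtnk1/2, 851.6 in shPcyt2, 796.5 in Etn-deprived and 703.7 in shPebp1. The shEtnk1/2 value was highest and the shPebp1 value lowest, both outside the control pair. The shEtnk1/2 difference was 0.30 (SE 0.06, limma adjusted p = 0.0265), at 123.1% of the shLuc mean.

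Cdkn1c slows the cell cycle and limits fetal growth from the maternal copy. Cdkn1c was at 53.1 RPKM in shLuc replicate 1, 53.7 in the library labelled shLuc replicate 2, 69.6 in shEtnk1/2, 50.7 in shPcyt2, 53.7 in Etn-deprived and 56.3 in shPebp1. Only the shEtnk1/2 library stood well apart from the other 5. Its difference was 0.37 (SE 0.07, limma adjusted p = 0.0249), at 130.2% of the shLuc mean.

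With either control library left out, the spread was taken from the other pathway libraries, fitted as 1 group. Those libraries had different treatments, so differences between treatments counted as spread. The SE of H19, for example, rose from 0.06 to 0.215. The 4 calls did not pass in these fits, which cannot tell the effect of a doubtful control from this wider spread. Without the library labelled shLuc replicate 2 the Dio3 difference was -1.03, Igf2 0.64, Cdkn1c 0.38 and H19 0.34. Without shLuc replicate 1 these differences were -1.06, 0.45, 0.37 and 0.26. The direction held in each case, and 5 and 3 genes of the whole table passed in those fits, against 413 with both controls. In the other 3 treated libraries 0 of the 9 genes passed with either control left out.

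The other 5 genes did not pass in shEtnk1/2. Dlk1, a transmembrane protein related to Notch ligands that restrains adipocyte differentiation, stood at 12.4 RPKM in shLuc replicate 1, 10.4 in the library labelled shLuc replicate 2, 15.3 in shEtnk1/2, 13.03 in shPcyt2, 10.9 in Etn-deprived and 10.2 in shPebp1. The shEtnk1/2 value was the highest, and the controls were themselves farther apart than for any other member on the log2 scale. The Dlk1 difference was 0.40 (SE 0.12, limma adjusted p = 0.111), and limma-voom on the reads behind the RPKM values gave an adjusted p of 0.00189. Rian differed by 0.20 (SE 0.07, adjusted p = 0.159), Grb10 by 0.14 (SE 0.06, adjusted p = 0.252), Meg3 by -0.10 (SE 0.09, adjusted p = 0.592) and Peg3 by 0.04 (SE 0.08, adjusted p = 0.867).

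**Figure D2:**
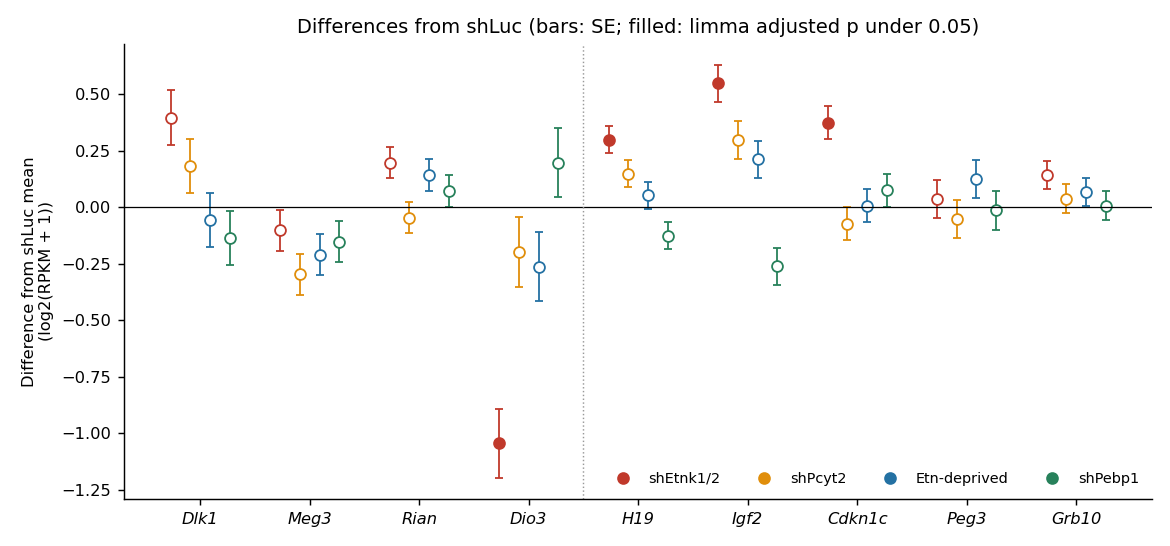
Difference of each treated library from the shLuc mean on the log2(RPKM + 1) scale (vertical axis) for the 9 genes, with Dlk1-Dio3 members left of the dotted line; bars are limma standard errors and filled points have an adjusted p under 0.05. The filled points are all in shEtnk1/2: Dio3 at -1.04, Igf2 at 0.55, Cdkn1c at 0.37 and H19 at 0.30.

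Markers of some cell types, but not of all those examined, differed in the same library. The summed level of the 10 fibroblast markers was 13520 RPKM in shEtnk1/2, 10610 in each shLuc library and 9920 to 11350 in the other treated libraries. These markers had a median difference of 0.32 on the log2 scale in shEtnk1/2, and none was at 0. Limma called 6 of them higher there (Col1a1, Col1a2, Col3a1, Dcn, Lum and Pdgfra), against 1.09% of all tested genes. Like the members' calls, these did not pass with either control left out, in fits that count differences between treatments as spread. The 9 neural and glial markers, 5 of them tested, summed to 58.2 RPKM in shEtnk1/2 and 70.9 to 84.8 in the other libraries, with Stmn2 lower. The 6 macrophage markers in the table, 2 of them tested, summed to 60.6 RPKM in shEtnk1/2 and 45.1 to 50.6 elsewhere. Most of that sum was Lyz2, at 52.5 RPKM in shEtnk1/2 and 40.2 and 42.5 in shLuc. The median macrophage marker was lower in shEtnk1/2 (0.627 RPKM) than in shLuc (0.855 and 0.898). The Lyz2 call did not pass with either control left out, in fits of the same kind. Summed markers of skeletal muscle (6.04 RPKM), adipocytes (9.215) and endothelium (21.85) in shEtnk1/2 lay within the range of the other libraries. Those of cartilage (18.3) and fetal liver (11.9) were lower than in any other library. The part of these markers in the imprinted genes' differences was not tested, and in bulk samples fewer cells of a type and less RNA per cell cannot be told apart.

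In the shPcyt2 library 0 of the 9 genes passed limma's test, against 0.109% of all genes, which is 13 genes, with 713 at an unadjusted p under 0.05. The largest differences from shLuc were those of Igf2, 0.30 (SE 0.08, limma adjusted p = 0.686), and Meg3, -0.30 (SE 0.09, limma adjusted p = 0.686). Limma-voom on reads called both, with adjusted p of 0.00113 for Igf2 and 0.0272 for Meg3. Meg3, a noncoding RNA of the maternal copy with growth-suppressing activity in cultured cells, stood at 22.6 RPKM in shLuc replicate 1, 21.7 in the library labelled shLuc replicate 2, 20.6 in shEtnk1/2, 17.8 in shPcyt2, 19.02 in Etn-deprived and 19.8 in shPebp1. All 4 treated libraries were under the control pair, shPcyt2 the lowest at 80.5% of the shLuc mean. The share of all tested genes with this order was not computed. For the 3 pathway libraries alone, 15.9% of all tested genes lay below both controls. Meg3 did not pass limma's test on the log2(RPKM + 1) scale in any of the 4 treated libraries (adjusted p 0.231 to 0.911). The remaining differences in shPcyt2 ran from -0.20 for Dio3 to 0.18 for Dlk1.

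In the Etn-deprived library 0 of the 9 passed, against 3.8% of all genes, which is 454 genes, with 2375 at an unadjusted p under 0.05. Igf2 differed by 0.21 (SE 0.08, limma adjusted p = 0.211), and limma-voom gave an adjusted p of 0.016. Dio3 differed by -0.26 (adjusted p = 0.383) at 79.1% of the shLuc mean, and Meg3 by -0.21 (adjusted p = 0.231). Rian, at 95.2 RPKM in shLuc replicate 1, 101.0 in the library labelled shLuc replicate 2, 112.6 in shEtnk1/2, 94.98 in shPcyt2, 108.4 in Etn-deprived and 103.1 in shPebp1, was higher than the controls in 3 of the 4 treated libraries. Its Etn-deprived difference was 0.14, and those of Peg3, Grb10, H19, Cdkn1c and Dlk1 lay between -0.05 and 0.13.

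In the shPebp1 library 0 of the 9 passed, against 0.101% of all genes, which is 12 genes, with 698 at an unadjusted p under 0.05. Igf2 had the largest difference, -0.26 (SE 0.08, limma adjusted p = 0.689), at 83.2% of the shLuc mean, and limma-voom gave an adjusted p of 0.0341. Dio3 differed by 0.20, Meg3 by -0.15, Dlk1 by -0.14 and H19 by -0.13. Peg3 and Grb10, at -0.01 and 0.01, were the closest to the controls. Peg3 ranged from 31.2 to 35.4 RPKM and Grb10 from 180.8 to 200.7 over all 6 libraries.

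With shEtnk1/2, shPcyt2 and Etn-deprived taken as 3 libraries of 1 inhibited pathway, limma called 0 of the 9 genes and 0% of all genes, with 724 genes at an unadjusted p under 0.05 and 0 called by limma-voom. Igf2 (0.35, SE 0.11, limma adjusted p = 0.812), H19 (0.17) and Grb10 (0.08) lay above both controls in every one of the 3 libraries, 3 of 9 members against 7.82% of all tested genes. Dio3 (-0.50, SE 0.25, limma adjusted p = 0.812) and Meg3 (-0.20, SE 0.09, limma adjusted p = 0.812) lay below both in every one, 2 of 9 members against 15.9% of all tested genes. Groups that do not overlap in either direction were found for 23.7% of all tested genes. Dlk1, Rian, Cdkn1c and Peg3 overlapped the controls. These comparisons share the shLuc libraries, so the treated libraries' differences are not independent of each other.

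Treated libraries were also compared with each other. Cdkn1c was higher in shEtnk1/2 than in shPcyt2 by 0.45 (SE 0.08, limma adjusted p = 0.0419), the 1 member called of 9 there, against 0.921% of all genes in either direction and 0.168% in the higher one. This call was lost with libraries scaled to a common median ratio (adjusted p = 0.0677), and over the alternatives its adjusted p ran from 0.00192 to 0.351. Dio3 was lower in shEtnk1/2 than in shPcyt2 by a difference of -0.85 (95% interval -1.24 to -0.45, limma adjusted p = 0.0591). Against Etn-deprived, where 0 of 9 were called beside 0.854% of all genes, the Dio3 difference was -0.78 (limma adjusted p = 0.0908) and the Cdkn1c difference 0.37 (limma adjusted p = 0.0913). Between shPcyt2 and Etn-deprived 0 of 9 were called, against 3.22% of all genes.

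Ratios within a library cancel its depth. The level of Dlk1 was 3.27 times that of Dio3 in shLuc replicate 1 and 2.66 times in the library labelled shLuc replicate 2. The ratio was 11.3 in shEtnk1/2, 4.03 in shPcyt2, 3.57 in Etn-deprived and 2.24 in shPebp1, so the protein genes at the ends of the locus that are read from the same parental copy were farthest apart in shEtnk1/2. The H19 to Igf2 ratio was 1.85 and 1.71 in shLuc, 1.496 in shEtnk1/2, 1.60 in shPcyt2, 1.59 in Etn-deprived and 1.95 in shPebp1. It was below the controls in the 3 pathway libraries and above them in shPebp1. Rian exceeded Meg3 by 4.22 and 4.64 times in shLuc and by 5.20 to 5.70 times in the 4 treated libraries, all above the control pair. This ratio partly restates the Meg3 levels, which were under the control pair in the same 4 libraries. The share of gene pairs whose ratios lie outside the control pair in such a way was not computed.

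**Figure D3:**
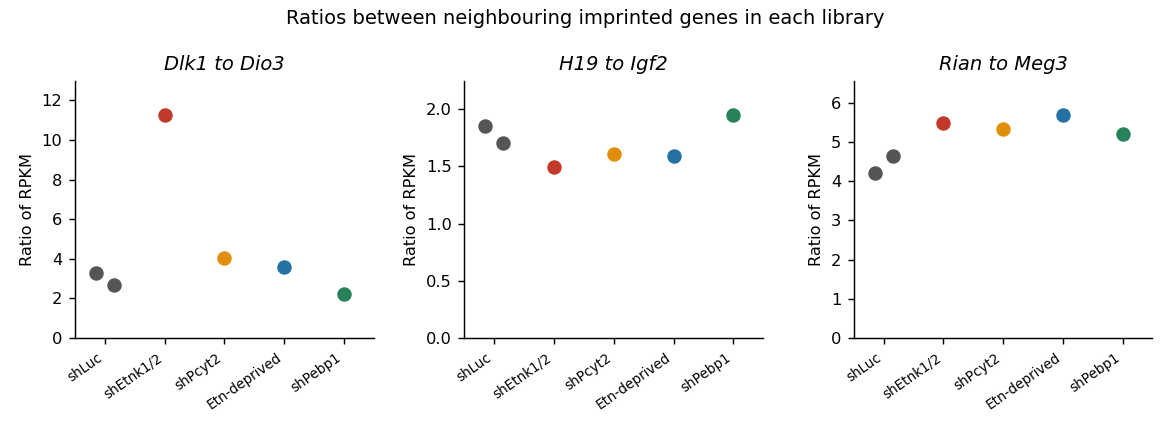
Ratio of RPKM levels between imprinted genes of the same locus (vertical axes from 0) in each library, 1 point a library. The Dlk1 to Dio3 ratio reaches 11.3 in shEtnk1/2 against 2.24 to 4.03 in the other 5 libraries, while the H19 to Igf2 ratio stays between 1.496 and 1.95.

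Between Dlk1 and Dio3 the table holds 30 rows, 4 of them members and 13 tested. The 16 microRNA rows had 1 to 23 reads each over the 6 libraries, which were poly-A selected. Another short row, AF357359, had 143 to 213 reads a library and stood at 246.1 to 381.7 RPKM. Its read numbers rest on a recovered length of 30 bases, the smallest that fits, and the row was not called in any of the 4 treated libraries. Rtl1, a retrotransposon-derived gene of the paternal copy, was under the filter with 2 to 15 reads a library. Mirg, the last long noncoding RNA of the maternal copy, stood at 2.63 and 2.39 RPKM in shLuc, 2.53 in shEtnk1/2, 2.46 in shPcyt2, 1.45 in Etn-deprived and 2.69 in shPebp1. It was lowest in Etn-deprived, by -0.52 (limma adjusted p = 0.131). The small RNA row DQ267100 was called lower in shPcyt2 (0 reads) and higher in Etn-deprived (11 reads) against 4 reads in each shLuc library. Both calls were lost with either control left out, in fits that count differences between treatments as spread. The genes outside the locus, Begain, Wdr25 and Ppp2r5c, were not called in any of the 4 treated libraries.

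A list of 55 other imprinted genes set the members beside the rest of their class. The table holds 51 of them, and 37 were tested. In shEtnk1/2 14 lay above and 23 below shLuc with a median of -0.04, and limma called 2 in each direction, against 1.09% of all tested genes higher and 2.37% lower. Mest, a paternally expressed gene of mesoderm, was at 43.6 and 41.2 RPKM in shLuc and 65.2 in shEtnk1/2 (difference 0.61, adjusted p = 0.00413). Slc38a4, an amino acid transporter, was at 15.1 and 14.7 in shLuc and 21.1 in shEtnk1/2 (0.48, adjusted p = 0.0256). Both were above the control pair.

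Ano1, a calcium-activated chloride channel, was at 33.2 and 31.1 RPKM in shLuc and 16.6 in shEtnk1/2 (difference -0.91, limma adjusted p = 0.00154). Peg12 was at 6.35 and 6.89 in shLuc and 4.08 in shEtnk1/2 (-0.58, limma adjusted p = 0.0397). The imprinted genes called in this library thus lay on both sides of shLuc. In Etn-deprived Mest (58.2 RPKM, difference 0.45, limma adjusted p = 0.0121) and Plagl1 (77.0 against 61.9 and 60.1, difference 0.33, limma adjusted p = 0.0348) rose. Plagl1 is a zinc finger transcription factor that acts on other imprinted genes. Tssc4 fell there (20.1 RPKM against 30.5 and 27.4, difference -0.51, limma adjusted p = 0.0178), so 3 of 37 were called there, against 3.8% of all tested genes, and none of the 37 in shPcyt2 or shPebp1. With either control left out none of these calls passed, in fits that count differences between treatments as spread. The Ano1 difference in shEtnk1/2 was -0.959 without the library labelled shLuc replicate 2 and -0.867 without shLuc replicate 1.

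**Figure D4:**
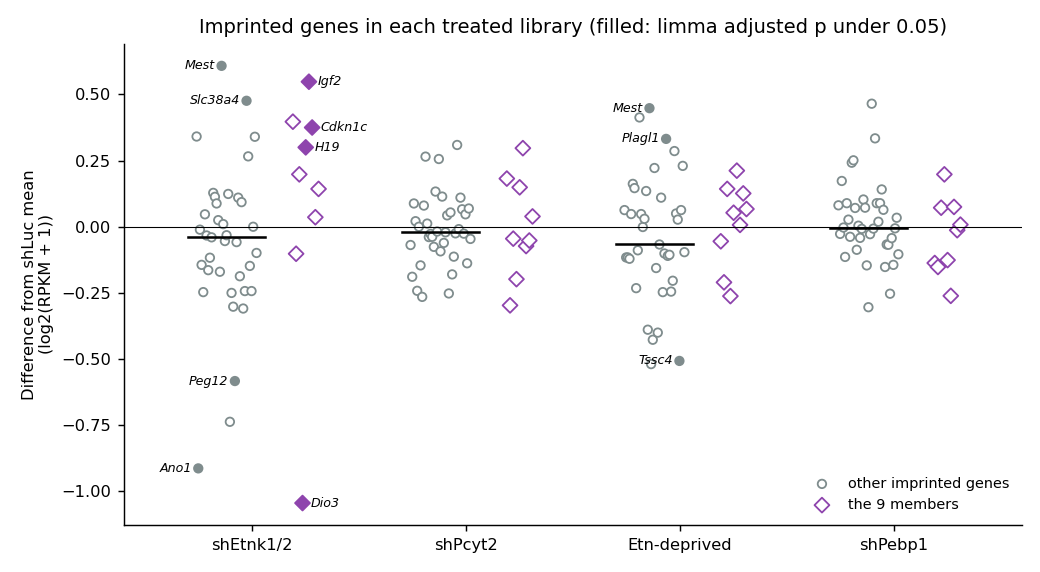
Difference of each treated library from the shLuc mean on the log2(RPKM + 1) scale (vertical axis) for 37 other imprinted genes (grey circles, black line at their median) and the 9 members (diamonds); filled symbols have a limma adjusted p under 0.05 and are named. Called genes are seen in shEtnk1/2, where they run from -1.04 for Dio3 to 0.61 for Mest, and in Etn-deprived.

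The partners of these genes were not called in any of the 4 treated libraries. Of the IGF receptors and signalling genes 11 were tested, with differences in shEtnk1/2 from -0.15 to 0.20 and a median of 0.02. Igf2r, which clears Igf2, differed by 0.09, and the receptor Igf1r by -0.14. The 5 tested thyroid hormone genes had a median of -0.20, with the receptor Thra at -0.20 (limma adjusted p = 0.214). The 6 tested Notch and Dlk genes had a median of -0.09, and Hes1, a Notch target, differed by 0.30 (limma adjusted p = 0.122). The relatives of Cdkn1c, Cdkn1a at -0.02 and Cdkn1b at -0.03, stayed close to shLuc in this library.

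Of 13 tested genes that maintain imprints, 11 lay below shLuc in shEtnk1/2 and 2 above, with a range of -0.31 to 0.03 and a median of -0.20. Over all tested genes 35.7% lay above shLuc in that library. Dnmt1, the maintenance DNA methyltransferase, differed by -0.24 (limma adjusted p = 0.126), its partner Uhrf1 by -0.21 and Zfp57, a zinc finger protein that guards methylated imprints, by -0.23. None of the 13 was called in any of the 4 treated libraries.

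Genes with the most similar profile over the 6 libraries were sought for the 3 members with a range of at least 0.5. Likeness was the root mean square difference of log2(RPKM + 1) after centring each gene on its own mean. The genes were picked for their values in these same 6 libraries, so their likeness to a member in any library follows from the choice. For Dio3 the nearest were 1700084C01Rik (0.04), Glb1l2 (0.06) and Msc (0.08). For Igf2 they included Plat (0.05) and Car12 (0.05). For Dlk1 they were Nipa1 (0.04), Wipi1 (0.04) and Fhl2 (0.05). Msc, a repressor of myogenic transcription, was at 6.82 and 7.52 RPKM in shLuc and 2.83 in shEtnk1/2. Plat, the tissue plasminogen activator, was at 39.6 and 46.6 RPKM in shLuc and 61.8 in shEtnk1/2.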

How the data were processed

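Poly-A selected RNA of 6 libraries was sequenced as paired reads of 100 bases, per the labels' protocols. The authors aligned to mm10 with Bowtie 0.12.2, per the submitters' processing notes, and deposited RPKM values for 18303 genes; no source used here gives the counting program or its strand setting. Whole reads behind the RPKM values were recovered for 100% of gene rows (tolerance 0.0001 reads), giving 18581314 to 20142641 reads per library; intervals at 95% are exact Poisson and cover counting error only. The positions in the table are shorter than the counted gene length for Meg3, Rian and Igf2, so coordinates were taken from the GENCODE annotation. Recovered reads are the smallest whole numbers that fit, so a gene's true reads may be a multiple.

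Log2(RPKM + 1) was tested for the 11939 genes averaging 1 RPKM or more, with limma 3.58.1 (R 4.3.3, trended and robust empirical Bayes, 5 group means), two-sided, with Benjamini-Hochberg adjustment over all genes and a threshold of 0.05. All 9 members passed the filter. The code was tested on simulated data. Alternatives were pseudocounts of 0.1 and 0.5, no filter, a mean of at least 5 RPKM, scaling to a common median ratio, quantile normalization, removal of length and GC trends, limma-voom on recovered reads, and leaving out libraries. The 9 members are all described; other genes are named where limma called them, where they are among the 4 highest of their list by mean level, where their profile is nearest a member's, or as targets of the shRNAs, and Zfp57, Igf1r, Dio3os and Rtl1 were chosen from the lists for their role after their values were seen. Some genes that these rules pick are not reported here. Members and lists were chosen with earlier results of these data known. A window for H19 or Cdkn1c was not used here, nor was an shPebp1 library without Etn analysed here. Tables and figures used Python 3.11.15, pandas 2.3.3, numpy 2.4.6, scipy 1.17.1 and matplotlib 3.10.9.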

Additional observations from a re-analysis of the deposited data

Results flagged for a closer look

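Cdkn1c is the member whose response differed between treatments by a test of the difference itself. Its difference between shEtnk1/2 and shPcyt2 was 0.45 on the log2(RPKM + 1) scale (SE 0.08, limma adjusted p = 0.0419), with 69.6 RPKM in shEtnk1/2, 50.7 in shPcyt2 and 53.1 and 53.7 in shLuc. Each side is 1 library, and 4 of 9 alternatives gave a call.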

How the results depend on the processing

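Counts of called genes moved with the processing, and the cause was not tested unless said. With no filter on low values limma called 0 genes in each comparison of single libraries and 5 for the 3 pathway libraries, where both smaller pseudocounts gave 1. In shEtnk1/2 the count of 413 (130 higher, 283 lower) became 230 (134, 96) with a common median ratio, 153 (81, 72) with quantile normalization, 227 (147, 80) with the length trend removed, 115 (76, 39) with length and GC trends removed, and 787 (334, 453) with limma-voom. The length and GC alternative was chosen after seeing the data and covers 95.5% of tested genes. In Etn-deprived, in the same order of settings, 454 became 251, 197, 105, 28 and 697. The 13 calls in shPcyt2 became 5 at a mean of at least 5 RPKM and 37 with limma-voom, and the 12 in shPebp1 became 7 with the length trend removed and 6 with length and GC. Between shEtnk1/2 and shPcyt2, 110 became 201 at 5 RPKM and then, in the order above, 14, 12, 16, 3 and 255. Between shEtnk1/2 and Etn-deprived, 102 became 45 with quantile normalization, 29 with length and GC and 363 with limma-voom. Between shPcyt2 and Etn-deprived, 385 became 604 at 5 RPKM, 180 with quantile normalization, 66 with length, 21 with length and GC and 742 with limma-voom.

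Leaving out 1 control gave 3 to 5 calls in shEtnk1/2, 0 to 3 in shPcyt2, 15 to 20 in Etn-deprived and 0 in shPebp1 (164 and 231 genes at an unadjusted p under 0.05), with fewer samples in each fit; leaving out 1 library of the 3-library comparison gave 0 to 8. The fits of a single treated library with 1 control take their spread from libraries of different treatments. Between treated libraries no test with a control left out was possible, since no residual degrees of freedom remain. Of 757 values of members under an alternative, 707 kept direction and side of the threshold, 19 lost a call, 11 gained one and 20 changed sign. In shEtnk1/2 H19 (adjusted p = 0.0519) and Igf2 (0.0722) also missed the threshold with quantile normalization, and all 4 members missed it with no filter (adjusted p 0.289 to 0.356). These values changed sign: with either control left out Peg3 ran from -0.014 to 0.086 in shEtnk1/2 and from -0.063 to 0.036 in shPebp1, and Dlk1 from -0.172 to 0.062 and Cdkn1c from -0.001 to 0.015 in Etn-deprived. Grb10 was -0.002 in shPcyt2 with quantile normalization, and in shPebp1 -0.002 with median ratio and quantile, -0.009 with length and -0.021 with length and GC. For the 3 pathway libraries, leaving out 1 library moved Cdkn1c from -0.033 (without shEtnk1/2) to 0.191, and Peg3 from -0.013 (without shLuc replicate 1; -0.008 without Etn-deprived) to 0.086. Between shPcyt2 and Etn-deprived, Meg3 was 0.064 with length and with length and GC, Dio3 -0.11 with length and GC, H19 -0.15 with quantile and -0.003 with length and GC, Igf2 -0.11 with quantile, and Grb10 0.048 with length and 0.058 with length and GC. No paired analysis was possible because the treated groups hold 1 library each and carry no replicate number. Depth limits Dio3 most, with 50 to 159 reads a library.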
